A study of Mus musculus with 18 samples.

Results

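The transcripts described here were the Toll-like receptors *Tlr2*, *Tlr3* and *Tlr4*, the *Tlr4* coreceptor genes *Cd14* and *Ly96*, the adaptors *Myd88* and *Ticam1*, the kinases *Irak1* and *Irak4*, and the ubiquitin ligase *Traf6*. These 10 genes, of 51912 in the count table, were taken by symbol, and the choice was made with earlier results of these data known. All 10 passed the minimum of 10 read pairs summed over the 18 libraries, as did 24495 genes in all, and every adjusted *p*-value below was corrected over those 24495.

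The cultures were primary cortical astrocytes from equal numbers of male and female mice taken at postnatal day 0, all hemizygous for Tg(Aldh1l1-EGFP/Rpl10a)JD130Htz/J, a strain of B6;FVB background that was crossed to C57BL/6J. In this strain the *Aldh1l1* promoter drives an EGFP-tagged ribosomal protein, so that antibodies to GFP pull down ribosomes from the cells in which that promoter is active. Cultures reached confluence over 14 d, grew for 6 d after replating and spent 24 h without serum, and then received 50 mM ethanol or control medium, also free of serum, for 24 h. The IP fraction, RNA bound to tagged ribosomes, was sequenced from 6 control and 6 ethanol dishes (replicates 1 to 6). The input fraction, total RNA of the lysate of every cell type in the dish, was sequenced from 3 control and 3 ethanol dishes of the same set (replicates 4 to 6). Whether the dishes came from separate litters was not stated, so the *p*-values for ethanol within a fraction measure the spread between dishes. Tests over both fractions took the 18 libraries as independent, although replicates 4 to 6 gave both an IP and an input library.

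Toll-like receptors recognize microbial products and molecules released by damaged cells. The product of *Tlr4* binds bacterial lipopolysaccharide together with MD-2, encoded by *Ly96*, and with the surface protein encoded by *Cd14*. The product of *Tlr2* binds lipoproteins, and that of *Tlr3* binds viral RNA duplexes inside endosomes. The adaptor Myd88 recruits the kinases Irak4 and Irak1 and then Traf6, which leads to NF-κB activation, whereas *Tlr3*, and *Tlr4* once internalized, signal through Ticam1, also called TRIF, to interferon genes. In the brain microglia express most of these receptors, and astrocytes are known for *Tlr3* in particular.

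Between 74239854 and 132810705 read pairs per library fell on genes. In the IP fraction 8 of 9 astrocyte markers were higher than in the input, and their summed level was 1733 to 1929 CPM (read pairs per 1000000 on genes) in the 12 IP libraries and 1103 to 1183 CPM in the 6 input libraries. Of the 15 microglia markers 14 were tested and 13 were lower in the IP fraction, with a median log2 fold change of -2.49, whereas the median over all genes was -0.03. Summed microglia markers were 25.5 to 31.9 CPM in the IP fraction and 153.9 to 182.1 CPM in the input. The homeostatic microglia marker *P2ry12* was close to 0 in both fractions, with averages of 0.0658 CPM (IP) and 0.0810 CPM (input). It was the 1 marker of the 14 that was not called lower in IP. Other microglia markers were detected in control input, with means of 11.96 CPM for *Fcrls*, 3.18 CPM for *Cx3cr1* and 1.47 CPM for *Tmem119*. In control IP these had means of 2.38, 0.608 and 0.308 CPM. Fewer cells of a type and less RNA per cell cannot be told apart in bulk libraries.

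Levels of different genes were compared as CPM per kilobase of annotated exon sequence. *Tlr2* stood highest of the 10 genes in each of the 18 libraries, at 48.6 ± 1.90 CPM per kb in the IP fraction (SD, n = 12) and 34.1 ± 1.27 in the input (SD, n = 6). *Tlr4* ranked 9 or 10 in every library, at 2.21 ± 0.172 CPM per kb in IP and 2.54 ± 0.256 in input. *Tlr3* had 16.6 ± 0.886 CPM per kb in IP and 13.4 ± 0.466 in input. Among the IP libraries *Tlr3*, *Irak1* (16.4 ± 1.147) and *Myd88* (13.6 ± 0.524) followed *Tlr2*, with overlapping ranges for *Tlr3* and *Irak1*. *Ticam1* (9.60 ± 0.599) and *Cd14* (9.54 ± 0.644) did not differ beyond their spread, nor did *Ly96* (3.80 ± 0.219) and *Irak4* (3.56 ± 0.163). *Traf6* (2.52 ± 0.206 CPM per kb) overlapped with *Tlr4* at the bottom of the order. Among the input libraries *Irak1* (23.5 ± 0.425) and *Cd14* (20.0 ± 0.796) came after *Tlr2*, and *Tlr3* and *Myd88* (13.4 ± 0.360) overlapped, as did *Traf6* (3.38 ± 0.289) and *Irak4* (3.37 ± 0.117). *Cd14* thus ranked 3 in the input and 6 in the IP fraction.

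**Figure D1:**
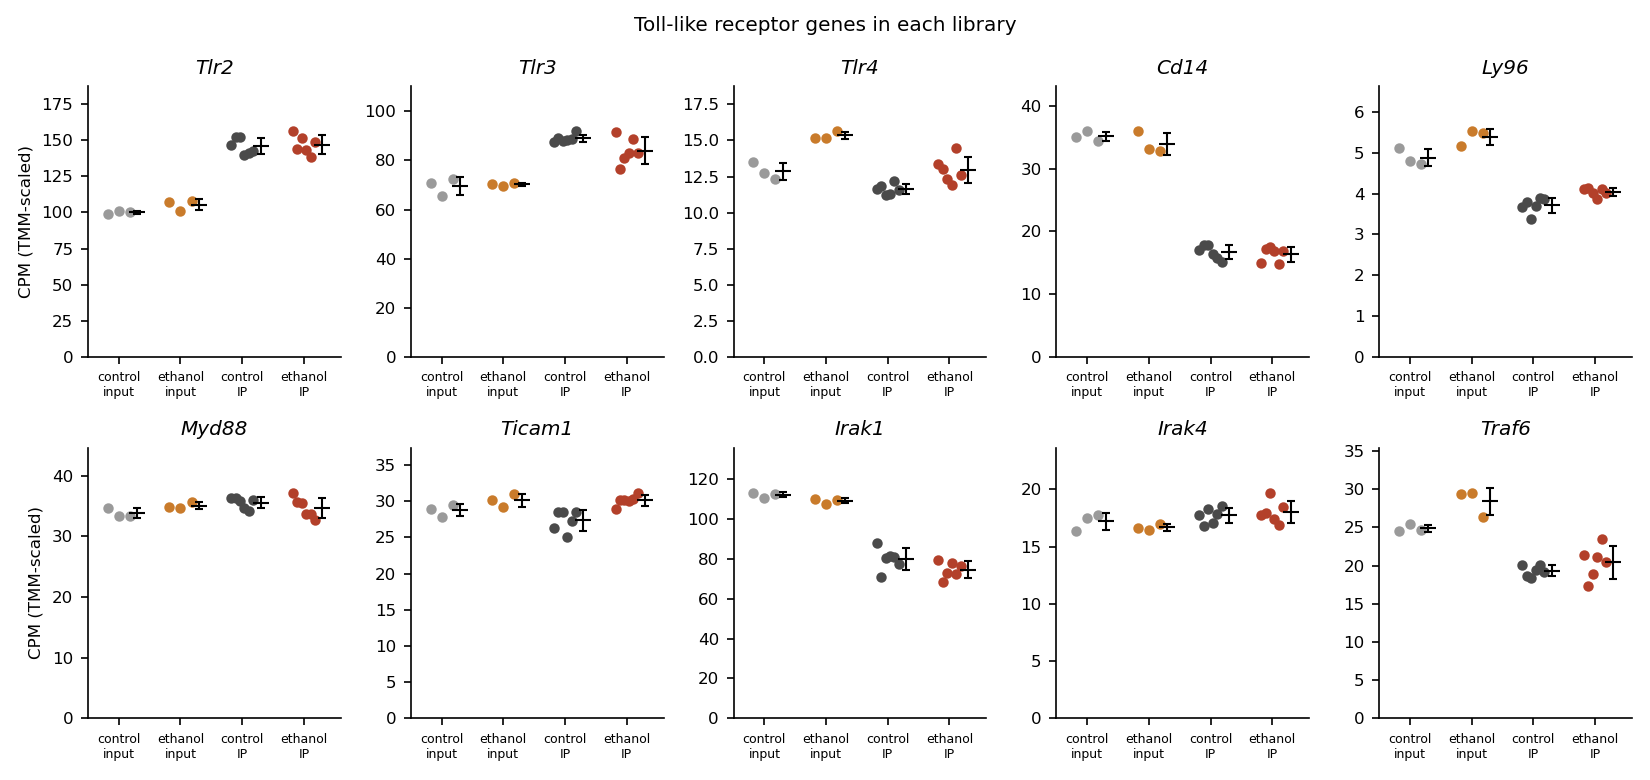
Level of each of the 10 genes in CPM (vertical axis, from 0, a separate scale for each gene) in the 3 control input, 3 ethanol input, 6 control IP and 6 ethanol IP libraries. Each point is 1 library, and the bar beside each group is its mean with the SD. *Tlr2* and *Tlr3* sat higher in IP than in input without overlap, *Cd14*, *Ly96*, *Irak1* and *Traf6* sat lower without overlap, and the 3 ethanol input libraries lay above all control input libraries for *Tlr2*, *Tlr4*, *Ly96*, *Myd88* and *Traf6* and below them for *Irak1* (27.1% of all genes had no overlap there).

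Promoter sequences from RefSeq (GRCm38.p6, from 250 bases before to 50 bases after the start) matched 7 of the 10 genes, and *Tlr4*, *Cd14* and *Ly96* had no entry. The stretches below lie before both the RefSeq and the Ensembl start and are shown for *Tlr2*, *Ticam1* and *Traf6*, which were upregulated by ethanol in 1 fraction (below). They run 5′ to 3′ on the strand of the gene, at chr3:83841768-83841858 (minus strand), chr17:56276787-56277017 (minus strand) and chr2:101678170-101678419 (plus strand), and capitals mark a match to one of 4 motifs searched on both strands.

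Tlr2: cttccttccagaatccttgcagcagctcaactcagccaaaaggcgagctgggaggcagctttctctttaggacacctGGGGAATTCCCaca
Ticam1: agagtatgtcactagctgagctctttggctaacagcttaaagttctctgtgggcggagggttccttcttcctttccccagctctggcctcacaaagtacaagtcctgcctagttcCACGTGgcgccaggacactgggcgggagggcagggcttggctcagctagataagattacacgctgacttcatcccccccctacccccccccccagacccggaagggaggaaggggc
Traf6: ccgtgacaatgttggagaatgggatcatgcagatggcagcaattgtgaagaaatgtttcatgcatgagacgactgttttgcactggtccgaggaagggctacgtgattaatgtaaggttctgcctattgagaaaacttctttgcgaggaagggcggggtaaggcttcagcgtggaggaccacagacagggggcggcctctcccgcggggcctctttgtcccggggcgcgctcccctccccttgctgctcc

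The capitals in *Tlr2* mark a pair of overlapping matches to the NF-κB consensus, a motif present in 8.46% of the 32851 promoters. A further match lay close to the *Tlr2* start, and the promoters of *Tlr3* and *Irak1* each held 1. The capitals in *Ticam1* mark an E-box (CACGTG), found in 7.15% of promoters. The *Myd88* promoter held a match to the interferon-stimulated response element, found in 3.44%, and the AP-1 motif TGANTCA (7.81%) was in none of the 7. Within these windows *Traf6* and *Irak4* had no match to any of the 4.

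The IP and input fractions were compared first, to ask which of the transcripts were more and which less abundant on tagged astrocyte ribosomes than in the whole dish. *Tlr2* and *Tlr3* were higher in the IP fraction, while *Tlr4*, its coreceptor genes *Cd14* and *Ly96*, and *Irak1* and *Traf6* were lower. *Myd88*, *Ticam1* and *Irak4* did not pass the test. The 7 genes called, 2 higher and 5 lower, compare with 51% of all genes called (25.2% higher and 25.8% lower), so that the share was not far from the background, and the libraries of 6 genes did not overlap between fractions, against 25% of all genes.

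*Tlr2* (chromosome 3, 83836272 to 83841767, GRCm38) had 99.1, 101 and 100 CPM in the control input libraries and 107, 101 and 108 CPM in the ethanol input libraries. In the IP fraction it had 139.6 to 152.3 CPM in control dishes (median 144.7, n = 6) and 138.5 to 156.3 CPM in ethanol dishes (median 146.2, n = 6). Every IP library was thus above every input library, with a log2 fold change of 0.51 ± 0.023 (SE) and an edgeR adjusted *p* of 4.79e-30. *Tlr3* (chromosome 8, 45395665 to 45411080) had 70.8, 65.4 and 72.6 CPM in control input, 70.5, 69.6 and 70.7 in ethanol input, 87.7 to 91.9 in control IP (median 88.6) and 76.5 to 91.7 in ethanol IP (median 83.1). The fractions did not overlap, at a log2 fold change of 0.31 ± 0.028 (adjusted *p* = 2.38e-12). An antisense transcript, *Gm45542*, shares 7.32% of the *Tlr3* exon sequence, and counting only the strand of *Tlr3* gave 102% of the pairs.

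*Tlr4* (chromosome 4, 66827584 to 66930284) was lower in the IP fraction at a log2 fold change of -0.20 ± 0.038 (adjusted *p* = 6.07e-06), but its IP and input libraries overlapped. *Cd14*, on chromosome 18, had the largest difference of the 10. It had 35.0, 36.0 and 34.5 CPM in control input and 36.0, 33.1 and 32.8 CPM in ethanol input, but 15.1 to 17.9 CPM in control IP (median 16.7) and 14.8 to 17.5 CPM in ethanol IP (median 16.9). This was a log2 fold change of -1.07 ± 0.033 (adjusted *p* = 4.51e-37), or 0.478 of the input level, with no overlap. *Ly96* (chromosome 1, 16688051 to 16709611) was lower in the IP fraction by -0.41 ± 0.054 (adjusted *p* = 6.58e-10), also with no overlap.

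Among the signalling proteins, *Irak1* (X chromosome, 74013914 to 74023918) was lower in IP at a log2 fold change of -0.52 ± 0.034 (adjusted *p* = 9.20e-12) and *Traf6* (chromosome 2, 101678429 to 101701669) at -0.42 ± 0.042 (adjusted *p* = 3.60e-10), both without overlap. The adaptors lay near 0, with log2 fold changes of 0.03 ± 0.027 for *Myd88* (chromosome 9, 119335934 to 119341411; adjusted *p* = 0.402) and -0.04 ± 0.029 for *Ticam1* (chromosome 17, 56269319 to 56276786; adjusted *p* = 0.302). *Irak4* (chromosome 15, 94543643 to 94581815) had 0.08 ± 0.034 (adjusted *p* = 0.0540) and shares 7.87% of its exon sequence with *Twf1* on the opposite strand. *Myd88* shares 11.3% of its exon sequence with *Acaa1a* on the opposite strand, and counting on its own strand gave 122% of the pairs with the same calls.

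Beside these values stand those of the other Toll-like receptors and of the microglia markers. Of 9 other receptors 7 were tested and all 7 were lower in the IP fraction, with a median log2 fold change of -2.09. *Tlr1*, which pairs with *Tlr2*, averaged 1.38 CPM in the IP and 5.86 in the input libraries, a log2 fold change of -2.09. *Tlr6*, another partner of *Tlr2*, had 1.32 and 2.49 CPM (-0.92). The endosomal receptors *Tlr7* (-2.33), *Tlr8* (-2.06), *Tlr9* (-2.57) and *Tlr13* (-2.40) had averages below 1 CPM in the IP fraction. *Tlr5* had the smallest difference of the 7 (-0.545), at 0.215 CPM in control IP and 0.277 CPM in control input, and its fractions overlapped. Of the receptor chaperones, *Unc93b1*, which carries endosomal receptors from the endoplasmic reticulum, was lower in IP (-0.65), whereas *Tril*, a *Tlr3* and *Tlr4* accessory gene, was higher (0.54). *Cd14*, at -1.07, lay between *Tlr4* and the microglia markers, 13 of which had values from -2.80 (*Ptprc*) to -1.99 (*Tmem119*). Of 5 fibroblast markers 4 were lower and 1 was higher in IP, with a median of -1.62. Their sum was 99.9 to 117.9 CPM in the IP fraction and 216.0 to 222.2 CPM in the input. Positive medians were not limited to astrocyte markers. Mural cell markers (3 of 6 higher and 1 lower, median 0.18) and neuron markers (3 of 5 higher and 1 lower, median 0.24) also had them. Endothelial (median -0.33) and oligodendrocyte lineage markers (median -0.40) had negative medians. The part that RNA of microglia or fibroblasts took in the lower level of *Cd14*, *Ly96* and *Tlr4* in IP was not tested.

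**Figure D2:**
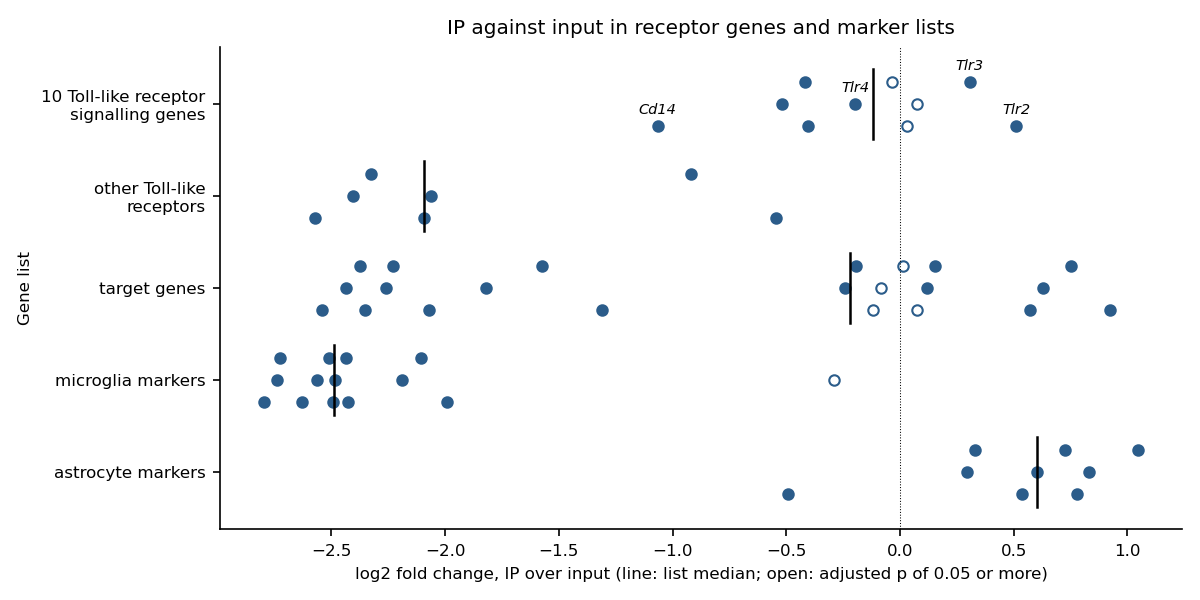
Log2 fold change of IP over input (horizontal axis) for the 10 genes, the other Toll-like receptors, the target genes, the microglia markers and the astrocyte markers. Each point is 1 gene, filled where the adjusted *p* was under 0.05, and the line is the median of the list. *Tlr2* and *Tlr3* lay on the side of the astrocyte markers (median 0.60), and the other receptors (median -2.09) on that of the microglia markers (median -2.49). Mural cell markers (median 0.18) and neuron markers (median 0.24), which are not drawn, also had positive medians.

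Genes around these 10 were read from 8 lists written from general knowledge, which held other receptors, accessory proteins and endogenous ligands as well as regulators, kinases, NF-κB factors, target genes and interleukin-1 receptors. Of the 102 genes 99 were tested and 78 passed the test between fractions (31 higher and 47 lower in IP), which is 78.8% beside 51% of all genes. Under the edgeR filterByExpr filter, which drops genes with low counts, 68% of the genes kept were called. Of 16 transcription factors and inhibitors of NF-κB 11 were higher in IP, among them *Nfkb2* (0.46) and *Tnip1* (0.77), a binding partner of the deubiquitinase A20, and 4 were lower. Target genes were lower in IP for 12 of 22 and higher for 6. The cytokine genes *Tnf* (-2.38), *Il1b* (-2.26) and *Il6* (-2.07) had values as low as those of the microglia markers, whereas the adhesion molecule genes *Vcam1* (0.57) and *Icam1* (0.75) and the complement gene *C3* (0.92) were higher.

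The next question was whether ethanol changed these transcripts on astrocyte ribosomes. In the IP fraction *Tlr4* and *Ticam1* were upregulated by ethanol, by 1.12-fold and 1.11-fold, and none of the other 8 genes passed the test. The 2 of 10 called compare with 21.4% of all genes called (11.9% higher and 9.48% lower), and the libraries of 1 gene (*Ticam1*) did not overlap, against 9.96% of all genes. Under the edgeR filterByExpr filter 32.1% of the genes kept were called, and *Tlr3* passed as well (lower, adjusted *p* = 0.0383).

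*Tlr4* had 11.2 to 12.2 CPM in the control IP libraries (median 11.6, 858 to 974 read pairs) and 11.9 to 14.5 CPM in the ethanol IP libraries (median 12.8, 936 to 1566 read pairs). In 5 of 6 ethanol libraries it was above every control library, and the other one lay within the control range. The log2 fold change was 0.16 ± 0.046 (SE), or 1.12-fold, with an edgeR adjusted *p* of 0.00689. The difference passed the test without any 1 of the 12 libraries (adjusted *p* from 0.00292 to 0.0435), but in replicates 4 to 6 alone (0.15, adjusted *p* = 0.0918) and in replicates 1 to 3 alone (0.16, adjusted *p* = 0.104) it did not.

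*Ticam1* had 25.1 to 28.6 CPM in control IP (median 27.9) and 28.9 to 31.2 CPM in ethanol IP (median 30.2). All 6 ethanol libraries were above all 6 control libraries, at a log2 fold change of 0.14 ± 0.035 (1.11-fold, adjusted *p* = 0.00101). With replicates 1 to 3 alone the adjusted *p* was 0.196, and with replicates 4 to 6 alone it was 0.00197. *Myd88*, the other adaptor, had 34.2 to 36.4 CPM in control IP and 32.6 to 37.2 CPM in ethanol IP, a log2 fold change of -0.03 (95% interval -0.09 to 0.04, adjusted *p* = 0.651).

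None of the other IP values passed the test. *Tlr3* had a log2 fold change of -0.08 ± 0.030 (adjusted *p* = 0.0661), with 4 of 6 ethanol libraries below every control library, and it passed the test under several other settings, with adjusted *p* values of 0.0446 by DESeq2 and 0.00309 with trends of GC content and transcript length removed. *Ly96*, the gene with the fewest reads (280 to 509 read pairs in IP), had 0.13 ± 0.067 (adjusted *p* = 0.189), with 5 of 6 ethanol libraries above every control library, and 0.24 (adjusted *p* = 0.00388) with those trends removed. *Irak1* had -0.09 ± 0.047 (adjusted *p* = 0.235) with all libraries and -0.13 (adjusted *p* = 0.00333) without control replicate 2. *Traf6* had 0.09 ± 0.051 (adjusted *p* = 0.251), with 0.12 (adjusted *p* = 0.0263) without ethanol replicate 2 and 0.05 (adjusted *p* = 0.533) without ethanol replicate 5. Its value was 0.15 (adjusted *p* = 0.0373) in replicates 4 to 6 alone and 0.02 (adjusted *p* = 0.916) in replicates 1 to 3 alone. For *Tlr2* the log2 fold change was 0.02 (95% interval -0.03 to 0.07), for *Cd14* -0.02 (-0.11 to 0.07) and for *Irak4* 0.03 (-0.05 to 0.11).

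In the input fraction *Tlr4*, *Traf6* and *Tlr2* were upregulated by ethanol. These 3 of 10 compare with 15% of all genes called (7.21% higher and 7.78% lower). Under the edgeR filterByExpr filter 20.1% of the genes kept were called, and *Tlr2* no longer passed (adjusted *p* = 0.0552). For 6 genes, 3 of which did not pass the test, control and ethanol input libraries did not overlap, where 27.1% of all genes did not.

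*Tlr4* had 13.5, 12.7 and 12.4 CPM in control input and 15.2, 15.2 and 15.6 CPM in ethanol input. The lowest ethanol library was above the highest control library, with a log2 fold change of 0.25 ± 0.058 (1.19-fold, adjusted *p* = 0.000251) and adjusted *p* values from 0.000242 to 0.00842 without any 1 library. *Traf6* had 24.5, 25.4 and 24.7 CPM in control input and 29.4, 29.6 and 26.4 CPM in ethanol input, also without overlap, at 0.19 ± 0.043 (1.14-fold, adjusted *p* = 0.000204). *Tlr2* moved least, from 99.1, 101 and 100 CPM to 107, 101 and 108 CPM. Its log2 fold change was 0.07 ± 0.026 (adjusted *p* = 0.0427), and it no longer passed when control replicate 4, 5 or 6 or ethanol replicate 4 or 6 was left out (adjusted *p* from 0.0802 to 0.323), with DESeq2 (adjusted *p* = 0.0781), with no filter on low counts (0.0557) or with the edgeR filterByExpr filter (0.0552).

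Of the genes that did not pass in the input, *Ly96* had 5.12, 4.80 and 4.73 CPM in control and 5.17, 5.53 and 5.48 CPM in ethanol libraries, at 0.14 ± 0.091 (adjusted *p* = 0.374). *Cd14* had a log2 fold change of -0.05 ± 0.039 (adjusted *p* = 0.431). *Ticam1*, called in the IP fraction, had 28.9, 27.8 and 29.5 CPM in control input and 30.1, 29.2 and 31.0 CPM in ethanol input, at 0.06 ± 0.041 (adjusted *p* = 0.380), with 1 ethanol library inside the control range. *Tlr3*, *Myd88*, *Irak1* and *Irak4* lay between -0.05 and 0.05.

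**Figure D3:**
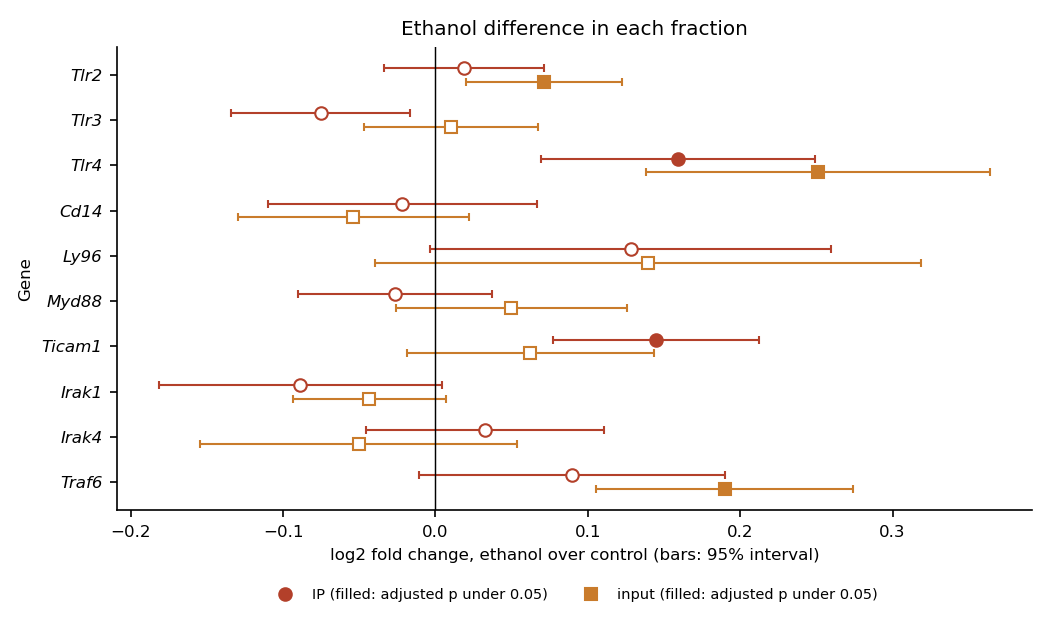
Log2 fold change of ethanol over control (horizontal axis) for each of the 10 genes in the IP fraction (circles, 6 against 6 libraries) and the input fraction (squares, 3 against 3), with 95% intervals. Filled symbols passed an adjusted *p* of 0.05, which held for *Tlr4* in both fractions, *Ticam1* in IP, and *Tlr2* and *Traf6* in input.

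An interaction term, fitted over the 18 libraries, asked whether the ethanol difference itself varied with fraction. None of the 10 genes passed, and neither did any of the 24495 (0% called, 1459 at an unadjusted *p* under 0.05). DESeq2 called 2 genes and a fit with the dish as a block 102, none of the 10 among them. The interaction was -0.10 (95% interval -0.25 to 0.04, adjusted *p* = 0.892) for *Tlr4*, 0.07 (-0.04 to 0.18, adjusted *p* = 0.897) for *Ticam1* and -0.11 (-0.27 to 0.05, adjusted *p* = 0.895) for *Traf6*, on the log2 scale as IP minus input. A call in 1 fraction only, as for *Ticam1*, *Traf6* and *Tlr2*, was therefore not shown to differ from the other fraction.

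Marker lists also moved with ethanol. Summed microglia markers ranged from 25.5 to 28.0 CPM in control IP and from 26.2 to 31.9 CPM in ethanol IP, and from 153.9 to 159.3 CPM in control input and from 154.6 to 182.1 CPM in ethanol input. Of 14 microglia markers tested, 3 were upregulated by ethanol in IP (*Csf1r* 0.33, *Laptm5* 0.27 and *Fcrls* 0.27), 2 in input (*Csf1r* 0.22 and *Ptprc* 0.26), and none was downregulated. Summed astrocyte markers were 1733 to 1811 CPM in control IP and 1857 to 1929 CPM in ethanol IP, with 4 of 9 markers upregulated and none downregulated. In the input they were 1103 to 1150 CPM in control and 1155 to 1183 CPM in ethanol libraries, with 4 upregulated and 3 downregulated. *Aldh1l1*, whose promoter drives the tagged ribosomal protein, had 186.2 to 193.5 CPM in control input and 166.2 to 178.6 CPM in ethanol input, without overlap. Its IP libraries overlapped, at 367.0 to 395.2 CPM in control and 341.9 to 382.9 CPM in ethanol. Summed mural cell markers fell from a range of 1641 to 1775 CPM in control IP to 1069 to 1268 CPM in ethanol IP, but this was *Acta2*, a smooth muscle actin gene (mean 1589 and 1069 CPM), whereas *Cspg4* rose (21.1 and 25.7 CPM) and the other 4 of 6 markers did not pass. Summed neuron markers were 129.1 to 137.5 CPM in control IP and 117.1 to 124.1 CPM in ethanol IP, with 1 of 5 downregulated. Summed oligodendrocyte lineage markers were 207.4 to 222.7 CPM in control IP and 179.9 to 196.9 CPM in ethanol IP, with 1 of 7 upregulated and 1 downregulated. In input their sum was 125.7 to 141.4 CPM in control and 118.4 to 124.3 CPM in ethanol libraries, with 2 upregulated and 1 downregulated. Their median log2 fold change was positive (0.12 in IP and 0.30 in input), so the lower sums did not stand for most of these markers. The part of these shifts in the *Tlr4* result was not tested.

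Over the 18 libraries the genes with log2 CPM most correlated with *Tlr4*, among 13452 genes averaging 1 CPM or more, were *Ccdc163* (Pearson r = 0.926), *Nrp1* (0.925), *Akap10* (0.919), *Ccng1* (0.912) and *Slc19a2* (0.910). These libraries share fraction and treatment, and within the 12 IP libraries the same genes had r of 0.913, 0.836, 0.783, 0.821 and 0.892. *Nrp1*, a semaphorin and VEGF coreceptor gene, had -0.23 for IP over input and 0.17 and 0.20 for ethanol in IP and input. *Ccng1*, the cyclin G gene, had -0.20, 0.14 and 0.15.

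The pathway lists were then read for ethanol. In the IP fraction 33 of 99 tested genes passed (19 up and 14 down), which is 33.3% beside 21.4% of all genes, with a median log2 fold change of 0.00 beside 0.01 for all genes. In the input fraction 27 passed (10 up and 17 down), 27.3% beside 15% of all genes. Under the filterByExpr filter, which drops genes with low counts, 32.1% of the genes kept were called in IP and 20.1% in input. The part of expression level in the pathway shares was not tested. Of 15 other adaptors and proximal regulators 6 were upregulated and 2 downregulated in IP, and 2 and 2 in input. Of 17 downstream kinases 6 were upregulated and 1 downregulated in IP, and 4 and 1 in input. Of 16 NF-κB factors and inhibitors none was upregulated and 3 were downregulated in each fraction, and of 22 target genes 2 were upregulated and 6 downregulated in IP, with 2 and 5 in input.

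Named genes of these lists were the 2 with the largest change per list and fraction, apart from *C3*, *Vcam1* and *Tlr13*. A gene given for 1 fraction can thus have changed in the other as well. *Peli2*, a Pellino ubiquitin ligase that acts on Irak proteins, had 25.7 to 29.1 CPM in control IP and 33.0 to 34.9 CPM in ethanol IP, and it rose by 0.34 ± 0.033 on the log2 scale there (adjusted *p* = 2.40e-12), and by 0.21 ± 0.042 in the input (adjusted *p* = 8.74e-06). *Peli3* was upregulated in input (0.29), and in IP it had 11.8 to 12.6 CPM in control and 13.4 to 14.2 CPM in ethanol libraries. *Ube2n*, the ubiquitin-conjugating enzyme that works with Traf6, was downregulated in IP (-0.20). In input *Ube2n* had 89.1 to 91.4 CPM in control and 77.4 to 80.3 CPM in ethanol libraries. *Map2k6*, a p38 kinase activator, rose by 0.42 in IP and 0.68 in input, at 1.19 to 2.99 CPM, and *Map3k8* by 0.18 and 0.15. The inhibitor genes *Nfkbie* (-0.10 in IP, -0.14 in input) and *Nfkbib* (-0.10 in both) fell. Of the receptor accessory genes *Tril* (0.22) and the chaperone gene *Hsp90b1* (0.07) rose in IP, *Cd180* rose (0.24) and *Lbp*, the lipopolysaccharide-binding protein gene, fell (-0.09) in input. Some of these calls were lost when 1 library was left out. In input that held for *Map3k8* (any of 5 of 6, all but ethanol replicate 5; adjusted *p* up to 0.333), *Cd180* (control replicate 5 or 6 or ethanol replicate 4 or 6; up to 0.276), *Nfkbib* (control replicate 5 or 6 or ethanol replicate 4 or 5; up to 0.285) and *Lbp*, which went to -0.05 (adjusted *p* = 0.309) without ethanol replicate 5. In IP it held for *Hsp90b1* (control replicate 1, 3 or 4 or ethanol replicate 1; up to 0.0980).

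Of the target genes called, 6 fell and 2 rose in IP, and 5 fell and 2 rose in input. *C3* and *Vcam1* had higher means in ethanol IP (7227 and 2236 CPM) than in control IP (6318 and 2010 CPM). The *C3* libraries overlapped, at 6118 to 6617 CPM in control IP and 6388 to 7591 CPM in ethanol IP. Those of *Vcam1* did not, at 1958 to 2067 CPM in control IP and 2111 to 2412 CPM in ethanol IP. *Il1b*, a proinflammatory cytokine gene, had a log2 fold change of -0.33 in input and, in IP, of -0.51 ± 0.077 (adjusted *p* = 7.42e-07), with 4.06 to 5.17 CPM in control IP and 2.43 to 3.77 CPM in ethanol IP. In input *Il1b* had 20.2 to 21.9 CPM in control and 14.9 to 18.1 CPM in ethanol libraries. The part of cells other than astrocytes in its IP reads was not tested. *Cxcl10*, an interferon-induced chemokine gene, had -0.36 ± 0.051 in IP (adjusted *p* = 0.000215) and -0.31 in input. Among the interleukin-1 receptor family, which also uses Myd88, *Il1rap* rose in both fractions (0.16 and 0.20) and *Il1rl1* fell in input (-0.45), a call lost without control replicate 5 or 6 or ethanol replicate 4 or 6 (adjusted *p* up to 0.130). Of the endogenous ligands of these receptors, *Hmgb1* fell in both (-0.13 and -0.12), *Hspd1* fell in IP (-0.10) and *Vcan* fell in input (-0.15). *Hspd1* in input had 203.0 to 215.0 CPM in control and 194.2 to 197.9 CPM in ethanol libraries. None of the other Toll-like receptors with at least 1 CPM passed the test for ethanol in its fraction. *Tlr13*, at 0.711 CPM on average in IP, was the 1 receptor that passed there (0.50, adjusted *p* = 0.0271) and was named after its value was seen.

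**Figure D4:**
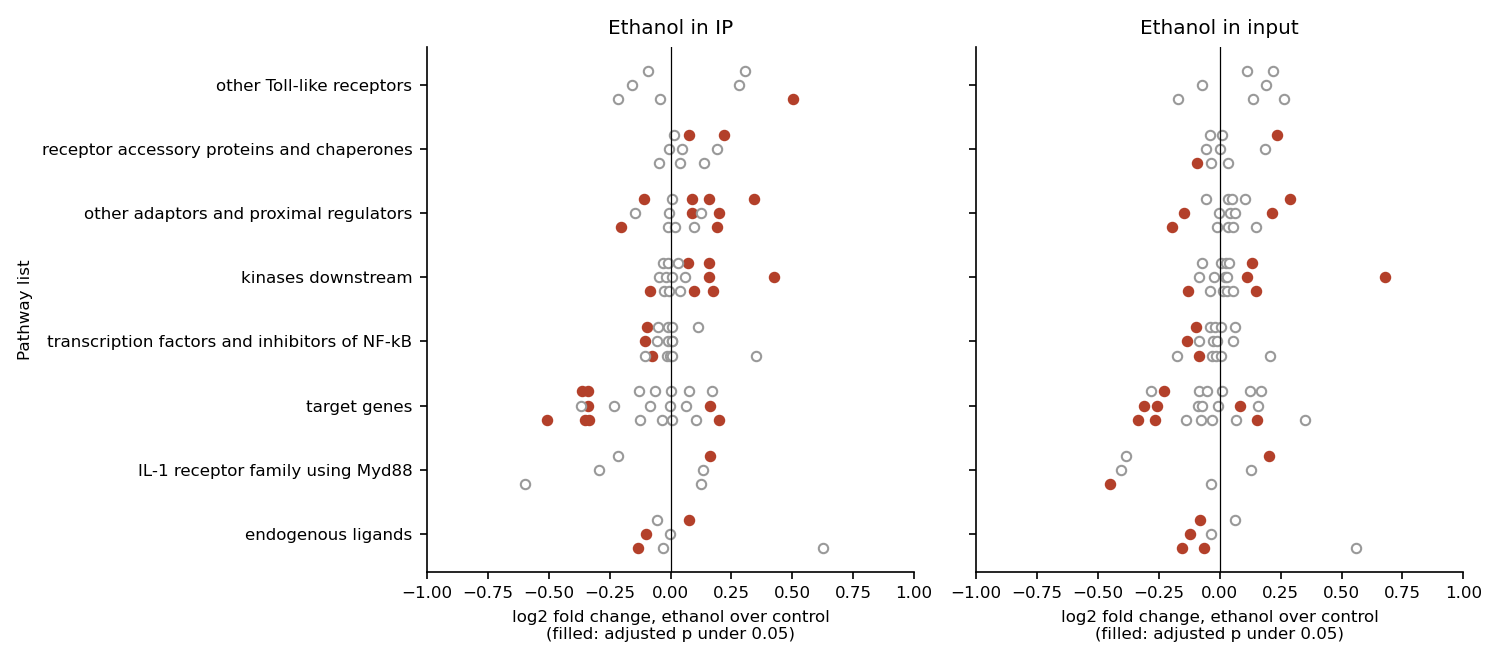
Log2 fold change of ethanol over control (horizontal axis) for the 99 pathway genes tested, by list, in the IP fraction (left) and the input fraction (right). Each point is 1 gene, and filled points passed an adjusted *p* of 0.05, 33 in IP and 27 in input. Most filled points of the adaptor and kinase lists lay to the right of 0 in IP, and most filled target genes to the left in both fractions.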

How the data were processed

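RNA-Seq was analysed in 12 IP (TRAP) and 6 input libraries. The values are unstranded read pair counts per gene as deposited by the authors, who used Trimmomatic for trimming, STAR for alignment to GRCm38 and for counting, and DESeq2 for their tests; the tools are those of the submitters' processing notes and the study's methods, and versions are not given in the sources used here. Columns of per-sample values left unused numbered 0. Pairs mapping to several places (3.60% on average) or to more than 1 gene (5.50%) were not counted, so genes with close copies or exon overlaps are understated.

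The test, run on genes whose counts summed to 10 or more over all libraries, was that of edgeR 4.0.16 (R 4.3.3; TMM scaling, robust quasi-likelihood *F* test, Benjamini-Hochberg over all genes tested, threshold 0.05). IP vs. input used all libraries with a treatment term, ethanol was tested within each fraction, and an interaction was tested over the 18 libraries. CPM are TMM-scaled. SE are the absolute log2 fold change over the square root of the *F* statistic. The 95% intervals take normal quantiles of these SE, so they are somewhat narrower than the *F* test implies. The scripts were tested on simulated data. By the labels, IP and input libraries of replicates 4 to 6 came from the same dish, and their deviations from the group means correlated at 0.0191 to 0.153.

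The 10 genes and all lists were chosen with earlier results of these data known. The lists were written from general knowledge. Pathway genes named for ethanol were the 2 largest changes per list and ethanol comparison. They were taken among genes with an adjusted *p* under 0.05 and a mean of at least 1 CPM. *C3*, *Vcam1* and *Tlr13* were named for ethanol outside this rule. *Tlr8* and the other receptors and the target, marker and chaperone genes cited for IP vs. input were chosen after their values were seen. Exon lengths and positions came from the Ensembl genes of GRCm38 (GENCODE), and promoters from RefSeq. Alternatives were other scalings and filters, DESeq2 1.42.0, counts of the gene's own strand, a test against a 1.2-fold change, replicate blocks, subsets of the IP libraries, removal of GC content and length trends, and leaving out each library in turn.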

Additional observations from a re-analysis of the deposited data

Results flagged for a closer look

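*Tlr3* in control IP replicate 6 had 91.9 CPM, the only value of 20 group values checked (the 10 genes in the control and ethanol IP groups of 6 libraries) that stood apart from the rest of its group. The next library had 89.0 CPM, and the gap was 0.691 of the range of the group. Chance sets apart about 5% of such groups, which is 1 in 20.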

How the results depend on the processing

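The counts of the 10 genes called between fractions (7), for ethanol in input (3) and by interaction (0) stayed within 1.5 times of these under every alternative run, except that a test against a 1.2-fold change left 0 for ethanol in input. For ethanol in IP (2) the count became 4 with no filter on low counts, with the replicate number as a block (*Tlr3* and *Irak1* added, both lower) and with GC content and length trends removed (*Tlr3* lower and *Ly96* higher added), and 0 with IP replicates 1 to 3 alone and against a 1.2-fold change. Pathway counts became 44 (of 78) between fractions and 0 in IP and input against a 1.2-fold change, and 20 (of 33) with IP replicates 4 to 6. Over all genes the calls went from 12498, 5233 and 3672 (fractions, ethanol in IP, in input) to 4936, 95 and 55 against a 1.2-fold change, from 5233 to 2995 with IP replicates 1 to 3, and from 0 to 102 for the interaction with the dish as a block. Fewer libraries or a stricter null were built into these alternatives, and for the other changes the cause was not tested. Leaving out 1 library gave 7 to 8, 2 to 3, 2 to 3 and 0 to 0 of the 10 genes (fractions, ethanol in IP, in input, interaction) and 74 to 81, 27 to 34 and 19 to 28 pathway genes. The labels do not say whether same-numbered control and ethanol dishes were paired. Deviations of same-numbered control and ethanol libraries correlated at -0.104 to 0.221 in IP and 0.0195 to 0.0657 in input. Those of unlike numbers correlated at -0.231 to 0.207 in IP and -0.0688 to 0.0318 in input. With the replicate number as a block *Tlr4* had adjusted *p* values of 0.00269 in IP and 0.000154 in input. The dish as a block between fractions changed no call (7 genes).

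Reversed signs were seen only for values that passed no test. *Myd88* between fractions was -0.022 with total counts, -0.016 with the dish as a block and -0.016 in the same 12 libraries without it, and for ethanol 0.0015 in IP replicates 1 to 3. *Cd14* for ethanol in IP was 0.039 in replicates 4 to 6 and 0.018 with GC and length trends removed, *Irak4* was -0.020 in replicates 4 to 6, and *Tlr3* in input was -0.026 with those trends removed. With 1 library left out, ranges crossed 0 for *Tlr2* (-0.00011 to 0.034), *Cd14* (-0.054 to 0.0043) and *Irak4* (-0.0028 to 0.049) in IP, *Tlr3* in input (-0.033 to 0.040) and the *Cd14* interaction (-0.0048 to 0.058). DESeq2 size factors lowered ethanol log2 fold changes in IP slightly (*Tlr4* 0.15, adjusted *p* = 0.0114).

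The 3 input libraries per group limit precision: the *Ly96* interval in input ran from -0.04 to 0.32.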
